A study of Mus musculus with 30 samples.

Results

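GFPneg CCR2high macrophages sorted from glioma-bearing mouse brain were compared with Ly6Clow blood monocytes of the same experiment. The comparison used 7 of the 28 replicates of the series, 4 of macrophages (mice 22, 23, 24 and 26) and 3 of monocytes (mice 22, 23 and 24), chosen by population name in the sample titles. Of the 2 libraries made from the Ly6Clow monocytes of mouse 23, the second was used. All animals were C57BL6.CCR2RFP/WT mice, in which 1 Ccr2 allele carries a red fluorescent protein (RFP), 12 to 18 weeks old, and all carried an intracranial GL261.BpalmGFP tumor, a syngeneic glioma line whose membranes are marked by palmitoylated GFP, so no population here came from a tumor-free animal. The macrophages were CD11b, CD45high and F4/80 positive cells with high CCR2 (RFP) and no GFP signal, that is, without detected uptake of tumor membrane. Brain cells with high Ly6C were sorted apart from them as glioma monocytes. The Ly6Clow monocytes were CD45, CD115 positive cells of the blood with low CD11c and low Ly6C. Brain cells were released with enzymes and separated on Percoll and blood cells were not, so tissue and preparation cannot be told apart in this comparison. The labels give brain as the tissue of the blood samples too. The paper used male and female mice and does not give the sex of each. Of 5 genes that mark sex, none had counts in every macrophage library, and *Xist* had none in any Ly6Clow library. The part of sex in the values below was not tested.

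Monocytes leave the bone marrow in a Ly6Chigh classical form that enters inflamed tissue through CCR2, and part of them become Ly6Clow patrolling monocytes, long-lived cells that crawl along the vessel wall and depend on NR4A1. Monocytes that enter a glioma differentiate into macrophages, which lie next to the resident microglia. Macrophages in tumors are known for phagocytosis and lysosomal digestion, for antigen presentation, and for secretion of chemokines, cytokines and matrix proteins.

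Total gene counts were between 1688256 and 4688949 in the macrophage libraries and between 1942915 and 3222246 in the monocyte libraries. The Ly6Clow library of mouse 23 stood apart. It had 6475 genes with at least 5 counts, against 9512 and 10882 in mice 22 and 24, and spike-in RNA made up 13.3% of its counts, against 2.47% and 0.779%. Its Spearman correlation across genes with the other Ly6Clow libraries was 0.711 and 0.715, against 0.874 between those of mice 22 and 24 and 0.853 to 0.937 among the macrophage libraries. Counts of called list members are therefore given with and without it, and single genes where leaving it out changed the call. Below, CPM is the count of a gene divided by its TMM-scaled library size, in the unit of that name, and values by mouse are listed in the order 22, 23, 24 and 26 for macrophages and 22, 23 and 24 for monocytes. Log2 fold changes are macrophages minus Ly6Clow monocytes, with their standard error. A gene was called when its adjusted p, taken from the quasi-likelihood test of edgeR and adjusted by Benjamini-Hochberg over all genes tested, was under 0.05.

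Among 26 genes that the study uses as markers of monocytes and macrophages, 8 were called higher and 3 lower (13 and 3 without the mouse 23 monocyte library). The sort markers were first compared at the RNA level. *Adgre1*, which encodes F4/80, was at 436, 617, 338 and 674 CPM in macrophages and 417, 380 and 401 CPM in monocytes, and the groups overlapped. *Csf1r*, the receptor for CSF1 and CD115 of the blood sort, was at 3284, 2593, 2436 and 3131 against 1945, 2558 and 3940 CPM, a log2 fold change of 0.02 ± 0.23 (adjusted p = 0.954). *Ptprc*, which encodes CD45, fell from 1399, 1656 and 2284 CPM in monocytes to 842, 640, 692 and 737 CPM in macrophages (-1.29 ± 0.22, adjusted p = 0.000102). This direction turned over when libraries were scaled by spike-in RNA. The chemokine receptor gene *Ccr2* was at 213, 313, 143 and 304 CPM in the CCR2high macrophages and at 221, 916 and 547 CPM in the monocytes (-1.21 ± 0.44, adjusted p = 0.0504). Sorting on CCR2 used the RFP reporter allele, and the CCR2high label stands for its place among macrophages, since CCR2low GFPneg macrophages had 72.2 ± 34.2 CPM (SD, n = 4) and Ly6Chigh monocytes 2060 ± 281 CPM (SD, n = 3). *Ly6c2*, the Ly6C gene, was at 222, 205, 214 and 147 CPM against 27.8, 273 and 68.1 CPM, with the library of mouse 23 as the highest of the monocyte libraries. Its log2 fold change was 0.68 ± 0.47 (adjusted p = 0.319) with that library and 1.99 (adjusted p = 0.00203) without it. Both sorts used Ly6C, so *Ly6c2* cannot be read apart from them. *Itgax*, the gene of CD11c, was at 459, 415, 266 and 526 against 73.6, 495 and 175 CPM (0.75 ± 0.53, adjusted p = 0.329, and 0.0364 without that library). The blood sort took CD11c low cells and the brain sort did not use CD11c, so *Itgax* cannot be read apart from the sort. *Ccr7*, a receptor for lymph node homing, was at 260, 234, 493 and 340 against 228, 122 and 126 CPM (1.06 ± 0.56, adjusted p = 0.178).

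Of 11566 genes tested, 2669 (23.1%) were called, 1699 higher in the macrophages (14.7%) and 970 lower (8.39%), by the quasi-likelihood test of edgeR. These shares of all genes tested are the base for the counts of called list members below. The median log2 fold change was 3.68 among genes called higher and -1.76 among genes called lower. In all, 1250 genes passed a test against a 2-fold change (edgeR's glmTreat), 960 higher (8.3%) and 290 lower (2.51%). Of the genes called higher, 506 had no count in any Ly6Clow library, and 5 of those called lower had none in any macrophage library. Without the mouse 23 Ly6Clow library, 2009 genes were called. Among all calls 63.66% were higher, and this share was 99.08% when libraries were scaled by spike-in RNA, a scaling that shifted the all-gene median log2 fold change from 0.25 to 1.87. The levels below are therefore shares of each library's messenger RNA. With spike-in scaling only 16 of all genes tested were called lower, so a list without lower calls there is not particular. Spike-in RNA was 0.475%, 0.632%, 0.475% and 0.419% of counts in the macrophage libraries and 2.47%, 13.3% and 0.779% in the monocyte libraries. The paper reports a set RNA input for reverse transcription, with spike-in added before it, so this scaling does not measure RNA per cell. In bulk samples, fewer cells of a type and less RNA per cell cannot be told apart.

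The largest fitted rises were in genes with no count in any Ly6Clow library, for which a fold change can only be bounded. These genes are given a bound for their mean macrophage CPM against a floor of 3 counts per library. Their bounds do not place them above genes with few monocyte counts, such as *Arg1* (1876-fold on pooled counts) and *Mertk* (1014-fold), described below. *Tmem119*, a microglial surface protein gene (chr5:113793729-113800516, minus strand, GRCm38), was at 662, 546, 954 and 532 CPM in the macrophages and was at least 584-fold higher than in monocytes (adjusted p = 1.09e-11). *Il1a*, an inflammatory cytokine gene, had 569, 176, 453 and 896 CPM and was at least 454-fold higher (adjusted p = 4.94e-08). *Ptgs2*, which encodes the inducible cyclooxygenase of prostaglandin synthesis, had 201, 119, 119 and 1177 CPM, with mouse 26 above the rest. Its mean, which mouse 26 raised, was at least 350-fold higher (adjusted p = 0.000999). The same absence from every Ly6Clow library held for *Sparc*, a matrix glycoprotein gene, *Spint1*, a protease inhibitor gene, *P2ry13*, a receptor for ADP, and *Mmp13*, a collagenase. The lower bounds of their rise were 495-fold for *Sparc*, 271-fold for *Spint1*, 224-fold for *P2ry13* and 206-fold for *Mmp13*. The other genes among the 12 with the largest fitted rise were the chemokines *Cxcl2*, *Ccl12*, *Ccl8*, *Ccl2* and *Ccl7*, which are described with their family.

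At the other end stood genes of the blood monocyte. *Retnla*, a small secreted protein gene, fell from 2879, 2560 and 282 CPM in monocytes to 6.31, 0.802, 9.79 and 0.686 CPM in macrophages, a log2 fold change of -8.97 ± 1.23 (adjusted p = 6.53e-06). *Serpinb10*, a protease inhibitor gene, went from 95.8, 154 and 178 CPM to 0, 1, 0 and 0.686 CPM (-7.90 ± 0.98). In both genes the lowest monocyte library was far above the highest macrophage library. *Cd300lg*, an immunoglobulin family receptor gene, was at 18.9, 137 and 73.7 CPM in monocytes (-6.76 ± 1.26, adjusted p = 0.000608), and *Galnt9*, a glycosyltransferase gene, at 17, 175 and 76.7 CPM (-6.00 ± 1.12, adjusted p = 0.000326). The transglutaminase gene *Tgm3* had 1 count in each of 2 macrophage libraries and was 308-fold (95% interval 84.7 to 2553) higher in monocytes on pooled counts, an interval that covers counting error only. The calls of 3 further genes depended on 1 library. *Dtx1*, a Notch pathway gene, *Ltbp1*, which binds latent TGF-beta, and *Gm15708* were called lower (adjusted p = 0.0098, 0.00422 and 0.00546) and were not called without the mouse 23 monocyte library (adjusted p = 0.0832, 0.172 and 0.0945), which had the highest level of each.

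**Figure D1:**
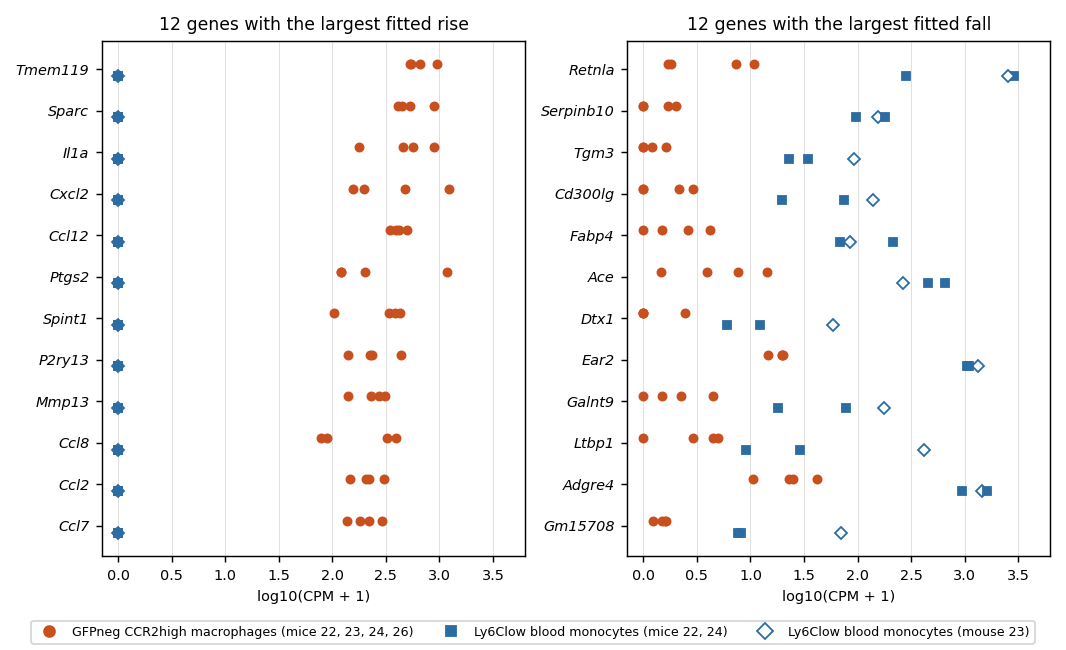
Level of the 12 genes with the largest fitted rise (left) and fall (right) in GFPneg CCR2high macrophages against Ly6Clow blood monocytes, as log10 of CPM + 1 in each replicate; the open diamond is the Ly6Clow library of mouse 23. All 12 genes on the left lie at 0 in every monocyte library, and on the right no macrophage replicate reaches a monocyte replicate.

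Genes of the patrolling monocyte were lower as a group. Of 30 members tested, 27 were called lower and none higher, with a median log2 fold change of -3.23. Without the mouse 23 monocyte library 26 were called lower. With spike-in scaling the median was -1.51 and 8 were called lower. *Ear2*, an eosinophil-associated ribonuclease gene (chr14:44102654-44103534, plus strand), was at 1038, 1319 and 1102 CPM in monocytes and 18.9, 18.6, 13.7 and 18.5 CPM in macrophages (-6.04 ± 0.75, adjusted p = 1.5e-06). *Spn*, the gene of CD43, by which patrolling monocytes are recognised (chr7:127132232-127137823, minus strand), was at 231, 469 and 335 and 8.2, 13.8, 11.8 and 15.3 CPM (-4.79 ± 0.48, adjusted p = 6.14e-08). *Adgre4*, an adhesion receptor gene related to F4/80, fell from 934, 1453 and 1616 to 40.4, 24.1, 22 and 9.61 CPM (-5.82 ± 0.69). In each of these genes every monocyte library was above every macrophage library, as in 8.05% of all genes tested.

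An enzyme, a lipid carrier and a surface receptor of these cells were also lower, without overlap between the groups. *Ace*, which encodes angiotensin-converting enzyme, was at 450, 267 and 658 CPM in monocytes and 13.2, 6.62, 2.94 and 0.457 CPM in macrophages (-6.38 ± 0.88, adjusted p = 7.66e-06). *Treml4*, a receptor that binds dying cells, was at 885, 710 and 1204 and 85.1, 24.7, 35.8 and 22.4 CPM (-4.49 ± 0.72, adjusted p = 5.45e-05). *Fabp4*, a fatty acid binding protein gene, was at 211, 84.8 and 67.8 and 3.15, 0, 0.49 and 1.6 CPM (-6.65 ± 1.34, adjusted p = 0.000745). The members not called were *Nr4a1*, *Cx3cr1* and *Tcf7l2*. *Nr4a1*, the nuclear receptor on which patrolling monocytes depend, was at 372, 219, 282 and 607 CPM in macrophages and 510, 411 and 1023 CPM in monocytes (-0.81 ± 0.50, adjusted p = 0.26). *Cx3cr1*, the fractalkine receptor gene shared with microglia, was at 605, 501, 720 and 613 and 290, 283 and 894 CPM (0.32 ± 0.34, adjusted p = 0.54), and its groups overlapped.

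Genes of the classical Ly6Chigh monocyte were called less uniformly, 8 lower (33.3%, against 8.39% of all genes tested) and none higher of 24 tested, with a median of -1.37. Without the mouse 23 monocyte library 5 were lower and 1 was higher. With spike-in scaling 2 were higher and none lower. The median turned to 1.06, below the all-gene median of 1.87 under that scaling. *Hp*, the gene of the hemoglobin scavenger haptoglobin, was at 954, 1017 and 302 CPM in Ly6Clow monocytes and 41, 29.7, 6.86 and 77.1 CPM in macrophages (-4.28 ± 0.60, adjusted p = 9.38e-06). *Plac8* was at 1243, 2253 and 1158 and 310, 394, 339 and 200 CPM (-2.32 ± 0.39, adjusted p = 0.000107). *Klf4*, a transcription factor of monocyte development, was at 117, 144 and 52.7 and 7.57, 9.43, 24 and 15.1 CPM (-2.89 ± 0.55, adjusted p = 0.000424). *Itgam*, the gene of CD11b, was at 506, 354, 271 and 858 against 308, 601 and 978 CPM and was not called (adjusted p = 0.678).

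**Figure D2:**
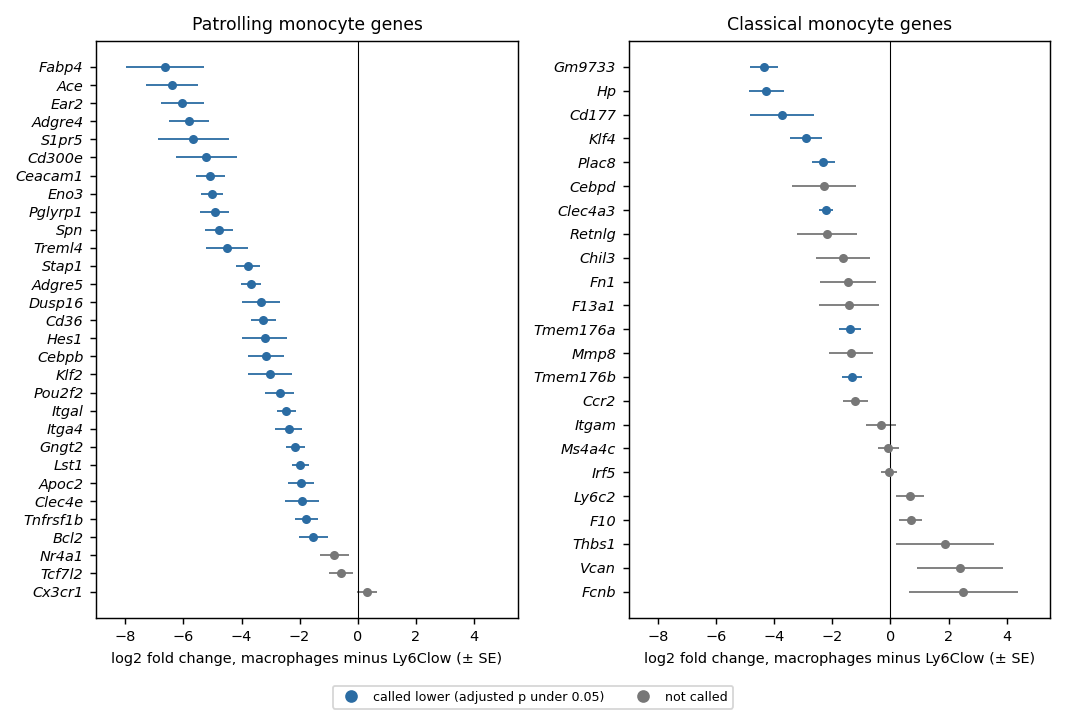
Log2 fold change of the genes of the patrolling (left) and classical (right) monocyte lists, GFPneg CCR2high macrophages minus Ly6Clow blood monocytes, with standard error bars. Blue points were called lower, which was 27 of 30 patrolling genes and 8 of 24 classical genes, and grey points were not called; 1 classical gene that was not called is left out of the plot.

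Genes that define microglia were higher in the macrophages. Of 16 markers tested, 14 were called higher and none lower (12 without the mouse 23 monocyte library), and 6 of them, *Tmem119*, *Sall1*, *Siglech*, *Slc2a5*, *Sparc* and *P2ry13*, had no count in any Ly6Clow library. *Sall1*, the transcription factor of microglial identity, was at 3.15, 6.82, 11.8 and 15.1 CPM in macrophages and was at least 7.98-fold higher. *P2ry12*, the microglial ADP receptor, was at 300, 288, 998 and 149 CPM against 0.472, 32 and 3.26 CPM (5.18 ± 0.99, adjusted p = 0.000403). The summed level of the list was between 4093 and 7494 CPM in CCR2high macrophages and between 449.6 and 1235 CPM in Ly6Clow monocytes. In CCR2low macrophages, sorted beside them with low CCR2 in place of high, it was between 6496 and 14700 CPM. The sort took cells with high CD11b and CD45, a gate meant to leave microglia out, and the part of any microglia in these values was not tested.

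Markers of other cells moved less evenly. The T and NK cell markers had summed levels of 1758 to 4770 CPM in macrophages and 1995 to 3047 CPM in Ly6Clow monocytes. Of 20 tested, 4 were called higher (20%) and 2 lower (10%), near the 14.7% and 8.39% of all genes tested. Without the mouse 23 monocyte library these were 2 and 1, and with spike-in scaling 5 and none. *Gzmb*, the gene of the cytotoxic protease granzyme B, was at 355, 538, 999 and 297 CPM against 39.2, 0 and 23.1 CPM (4.73 ± 0.88, adjusted p = 0.000321). The T cell receptor complex genes *Cd3e* (73.8, 100, 102 and 41.4 against 208, 280 and 166 CPM) and *Trbc2* (47.3, 51.1, 85.2 and 23.6 against 225, 159 and 130 CPM) were called lower (-1.46 ± 0.50 and -1.73 ± 0.54), directions that turned over with spike-in scaling. The call of *Cd3e* was lost without macrophage library 22, 23 or 26 or monocyte library 22 or 23 (highest adjusted p = 0.113). That of *Trbc2* was lost without macrophage library 22, 23 or 26 or monocyte library 22 (highest adjusted p = 0.0828). Among dendritic cell markers 7 of 16 were called higher (43.75%) and 1 lower (6.25%), against 14.7% and 8.39% of all genes tested (7 and none without the mouse 23 library). Their summed levels were 1080 to 2241 CPM in macrophages and 765.6 to 2217 CPM in monocytes. The chemokine *Ccl22* (104, 95.5, 376 and 69.1 CPM) was absent from every Ly6Clow library and at least 140-fold higher. *Cd209a*, a lectin receptor gene, went from 328, 1674 and 1078 CPM in monocytes to 41.6, 20.5, 152 and 6.18 CPM in macrophages (-4.24 ± 1.24, adjusted p = 0.0149). It was not called without macrophage library 22 or 23 or monocyte library 23 (highest adjusted p = 0.0624). Neutrophil markers were summed to 205.1 to 510.8 CPM in macrophages and 908.4 to 1291 CPM in monocytes. The granule genes *Elane* and *Mpo* were at 0 in every library of both populations. *Camp*, *Ltf* and *Ngp* were at 0 in every monocyte library, and *Ctsg* in every macrophage library. Of 13 tested, 1 was called lower (7.69%, near the 8.39% of all genes tested), and also 1 without the mouse 23 library. B and plasma cell markers were summed to 463.6 to 2292 and 1341 to 1947 CPM. Astrocyte markers were summed to 98.44 to 174.7 CPM in macrophages and 12.74 to 83.28 CPM in monocytes, oligodendrocyte markers to 378.4 to 473.6 and 440.7 to 749.1 CPM, and endothelial markers to 73.95 to 545.3 and 78.31 to 122.6 CPM. By calls, 5 of 7 astrocyte markers (71.4%), 4 of 9 oligodendrocyte markers (44.4%) and 3 of 12 endothelial markers (25%) were higher, against 14.7% of all genes tested. Of these lists only the oligodendrocyte list had a lower call (1). Without the mouse 23 library 5, 3 and 1 were higher. No count in any Ly6Clow library was found for 7 of the 9 astrocyte, 8 of the 11 oligodendrocyte and 8 of the 13 endothelial markers. The part of these cells in the results below was not tested.

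**Figure D3:**
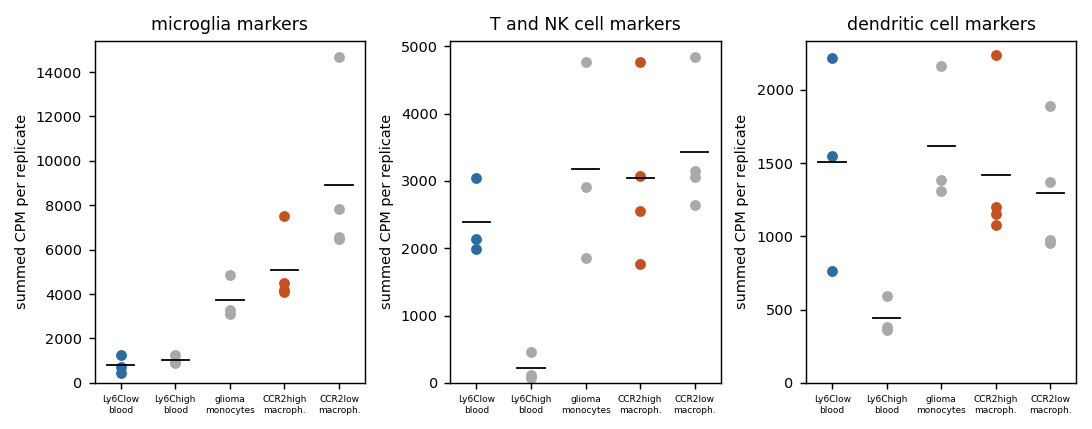
Summed CPM of the microglia, T and NK cell and dendritic cell marker lists in each replicate of Ly6Clow and Ly6Chigh blood monocytes, GFPneg glioma monocytes and GFPneg CCR2high and CCR2low macrophages; points are replicates and the line is the mean. The microglia level of the CCR2high macrophages (4093 to 7494 CPM) lies above the Ly6Clow blood monocytes (449.6 to 1235 CPM), while T and NK cell and dendritic cell levels overlap between these populations.

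Chemokines, the secreted proteins that recruit leukocytes, made up 5 of the 12 genes with the largest fitted rise. Promoter sequences of the following genes are shown because the NF-kB motif GGGA, any base, TTTCC, searched on both strands in the 250 bases before the start, occurs in 0.414% of the 27025 gene symbols with a RefSeq promoter (GRCm38.p6) and in 3 of the 10 CXC chemokines that have one (*Cxcl1*, *Cxcl2* and *Cxcl3*). The capitals mark the match, and each sequence ends before the first base of the gene in RefSeq or GENCODE, whichever comes first. A match is only a description of the letters.
Cxcl2 (chr5:90903649-90903870, plus strand): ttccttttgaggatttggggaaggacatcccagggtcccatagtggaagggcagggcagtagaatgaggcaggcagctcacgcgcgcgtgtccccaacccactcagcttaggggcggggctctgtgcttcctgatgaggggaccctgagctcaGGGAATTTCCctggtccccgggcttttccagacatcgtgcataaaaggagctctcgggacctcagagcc
Cxcl1 (chr5:90890995-90891240, plus strand): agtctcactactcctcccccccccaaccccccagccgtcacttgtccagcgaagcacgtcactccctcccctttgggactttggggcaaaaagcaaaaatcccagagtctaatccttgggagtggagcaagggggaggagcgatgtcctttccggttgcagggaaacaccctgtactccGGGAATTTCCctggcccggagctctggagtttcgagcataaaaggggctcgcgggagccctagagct

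*Cxcl2*, a neutrophil attractant whose gene lies beside *Cxcl1*, was at 479, 156, 196 and 1233 CPM in macrophages, at least 448-fold higher than in Ly6Clow monocytes, where it had no count (adjusted p = 4.12e-05). *Cxcl1*, a chemokine with the same receptor, was at 100, 34.7, 16.2 and 611 against 9.44, 0 and 0 CPM (6.06 ± 2.08, adjusted p = 0.0372). Both were highest in mouse 26, and the call of *Cxcl1* was lost without macrophage library 26 (adjusted p = 0.135) and without monocyte library 23 or 24 (adjusted p = 0.159 and 0.0883). *Cxcl3*, the other member with the motif, was at 2.52, 3.21, 0.49 and 49.9 CPM and at 0 in the monocytes and was not called (adjusted p = 0.09). Of 12 CXC chemokines tested 7 were called higher and none lower (6 without the mouse 23 library). *Cxcl16*, a membrane-bound chemokine, was at 1650, 1181, 1220 and 1155 against 7.08, 0 and 13.9 CPM (7.49 ± 0.66, adjusted p = 7.97e-09). The T cell attractants *Cxcl9* (491, 591, 278 and 407 against 0, 0 and 1.18 CPM) and *Cxcl10* (629, 497, 456 and 467 against 0, 0 and 15.4 CPM) rose by 9.72 ± 0.97 and 6.51 ± 0.83 on the log2 scale, and *Cxcl11* was at least 24.1-fold higher. *Pf4*, a platelet chemokine, was at 56.8, 57.6, 32.8 and 220 against 108, 0 and 9.47 CPM (adjusted p = 0.426).

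Of 14 CC chemokines tested, 10 were called higher and 2 lower (10 and 1 without the mouse 23 monocyte library; 11 and none with spike-in scaling). The monocyte attractants *Ccl2* (220, 205, 145 and 302 CPM), *Ccl7* (218, 179, 137 and 292 CPM) and *Ccl12* (493, 389, 416 and 344 CPM), ligands of CCR2, had no count in any Ly6Clow library and were at least 189-fold, 179-fold and 356-fold higher. *Ccl8* was at 78.2, 392, 89.1 and 326 CPM, also with no count in the monocytes. *Ccl4*, an attractant of T cells and macrophages, was at 551, 422, 926 and 680 against 7.08, 0 and 0.888 CPM (8.04 ± 0.65, adjusted p = 1.86e-09), and *Ccl3* was at 185, 132, 293 and 346 against 4.25, 37.8 and 2.07 CPM (4.02 ± 0.75). The 2 members that fell were *Ccl6* (249, 404, 747 and 954 against 2367, 2754 and 1613 CPM, -1.93 ± 0.46, adjusted p = 0.00356) and *Ccl9* (58.7, 169, 188 and 469 against 583, 1742 and 600 CPM, -2.14 ± 0.65, adjusted p = 0.0197), chemokines made by myeloid cells. The call of *Ccl9* was lost without macrophage library 22 or 23 or monocyte library 23 (highest adjusted p = 0.159), and both directions turned over with spike-in scaling. *Ccl24*, the eosinophil attractant, had 17.7, 182, 382 and 67.2 against 0.472, 69.4 and 0.592 CPM (adjusted p = 0.161, and 0.02 without the mouse 23 library).

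Receptors for chemokines and for the lipid sphingosine 1-phosphate, which draws cells back into the blood, went in both directions. Of 23 tested, 3 were called higher (13%) and 6 lower (26.1%), against 14.7% and 8.39% of all genes tested (3 and 4 without the mouse 23 library, and 6 and none with spike-in scaling). *Ccr1*, a receptor for inflammatory CC chemokines, rose from 88.2, 60.5 and 37 CPM to 897, 668, 791 and 882 CPM (3.71 ± 0.35, adjusted p = 1.97e-08), and *Ccrl2*, a chemerin-binding receptor, from 33.5, 9.25 and 32.6 to 1053, 673, 771 and 1759 CPM (5.40 ± 0.57). The sphingosine 1-phosphate receptor gene *S1pr5* fell from 316, 8.87 and 145 CPM to 2.52, 1.8, 8.82 and 0 CPM (-5.66 ± 1.22, adjusted p = 0.00219) and *S1pr4* from 29.7, 33.2 and 19.2 to 5.05, 4.41, 3.92 and 1.14 CPM (-2.92 ± 0.72, adjusted p = 0.00421). *S1pr1*, at 30.9, 19.5, 41.6 and 29 against 97.2, 103 and 73.7 CPM, was called lower (-1.60 ± 0.55, adjusted p = 0.0351). Leaving out 1 library ended this call in 5 of 7 fits (without macrophage library 22, 23 or 26 or monocyte library 22 or 23; highest adjusted p = 0.0982). Its direction turned over with spike-in scaling.

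Cytokines and growth factors were higher in 18 of 30 members tested and lower in 1 (also 18 and 1 without the mouse 23 library), with a median log2 fold change of 4.22, or 3.13 with members absent from the monocytes set at their bound. *Il1b*, the gene of interleukin 1 beta, was at 2594, 1055, 1417 and 3369 CPM in macrophages and 129, 210 and 128 CPM in monocytes (3.76 ± 0.59, adjusted p = 4.28e-05). *Tnf* was at 65, 62.2, 102 and 175 against 16.5, 0 and 14.2 CPM (3.31 ± 0.83, adjusted p = 0.00486). *Vegfa*, the endothelial growth factor gene, had 15.1, 26.9, 75.4 and 43.9 CPM, and *Igf1*, a macrophage growth factor gene, 10.1, 56.1, 38.7 and 23.6 CPM, and both were absent from the Ly6Clow libraries (at least 35-fold and 27.9-fold). *Il10*, the gene of a cytokine that restrains macrophage activation, was at 7.57, 5.82, 2.94 and 46.9 CPM, highest in mouse 26. Its mean, which mouse 26 raised, was at least 13.7-fold higher (adjusted p = 0.00521). *Il12b*, an interleukin 12 chain gene, was at 19.6, 27.5, 37.2 and 6.18 CPM and at least 19.6-fold higher (adjusted p = 0.000627). *Tgfb1* was at 136, 174, 107 and 39.3 against 121, 1.16 and 124 CPM (adjusted p = 0.729). The member that fell was *Il16*, a CD4 ligand gene, from 233, 335 and 317 to 83.9, 54.1, 102 and 57.2 CPM (-1.99 ± 0.35, adjusted p = 0.000179).

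Receptors for these factors were called in both directions, 4 higher (13.3%) and 5 lower (16.7%) of 30, against 14.7% and 8.39% of all genes tested (5 and 4 without the mouse 23 library, and 5 and none with spike-in scaling). *Il1r2*, the decoy receptor for interleukin 1, was at 162, 93.4, 190 and 446 CPM against 3.3, 0 and 5.03 CPM (6.27 ± 1.10, adjusted p = 0.00016). *Tnfrsf1b*, a TNF receptor gene, fell from 1024, 758 and 2718 to 482, 353, 275 and 637 CPM (-1.78 ± 0.40, adjusted p = 0.00194), and *Ifngr1*, the interferon gamma receptor gene, from 1607, 1310 and 1976 to 822, 547, 856 and 642 CPM (-1.19 ± 0.20, adjusted p = 0.000112), a direction that turned over with spike-in scaling. *Il4ra*, the receptor of the alternative activation signal, was at 706, 537, 334 and 914 against 49.1, 598 and 226 CPM (1.10 ± 0.56, adjusted p = 0.163, and 0.016 without the mouse 23 library, the highest of the monocyte libraries).

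Within NF-kB, the transcription factor of inflammatory genes, 6 of 22 genes were called higher (27.3%) and 2 lower (9.09%). Over all genes tested the shares were 14.7% and 8.39%. Without the mouse 23 library the counts were 3 and 2, and none was lower with spike-in scaling. *Tnfaip3*, the A20 feedback inhibitor, was at 241, 286, 298 and 378 CPM against 9.91, 0 and 18.3 CPM (4.97 ± 0.78, adjusted p = 4.37e-05). *Nfkb1*, the gene of the p50 subunit, fell from 216, 404 and 404 to 39.1, 42.1, 56.3 and 45.7 CPM (-2.90 ± 0.41, adjusted p = 1.17e-05). *Rela*, the p65 subunit gene, was at 122, 118, 112 and 102 against 99.5, 147 and 188 CPM (adjusted p = 0.337). Toll-like and other innate sensors were called higher in 8 and lower in 8 of 30 (26.7% each, against 14.7% and 8.39% of all genes tested). Without the mouse 23 library these were 7 and 4, and with spike-in scaling 7 and none. *Tlr3*, a sensor of double-stranded RNA, was at 61.2, 50.5, 39.7 and 44.1 CPM and absent from the monocytes. *Cd14*, the co-receptor for bacterial lipopolysaccharide, was at 1127, 569, 501 and 1651 against 119, 36.6 and 22.8 CPM (4.03 ± 0.70, adjusted p = 0.000149). *Trem3*, an amplifying receptor, fell from 394, 174 and 267 to 41, 22.9, 27.4 and 17.4 CPM (-3.37 ± 0.54).

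Genes induced by interferons, antiviral and antigen-processing genes switched on by type I or type II interferon, rose in 25 of 45 members and fell in 3 (30 and 1 without the mouse 23 library, and 30 and none with spike-in scaling). Promoters are shown because the interferon response element GAAA, any 2 bases, GAAA occurs in 3.46% of all those symbols and in 17 of the 35 members with one (48.6%), of which 14 were called higher. Of all 35 members with a promoter, 21 were called higher. Capitals mark the matches, on either strand, overlapping ones run together.
Cxcl10 (chr5:92348890-92349139, minus strand): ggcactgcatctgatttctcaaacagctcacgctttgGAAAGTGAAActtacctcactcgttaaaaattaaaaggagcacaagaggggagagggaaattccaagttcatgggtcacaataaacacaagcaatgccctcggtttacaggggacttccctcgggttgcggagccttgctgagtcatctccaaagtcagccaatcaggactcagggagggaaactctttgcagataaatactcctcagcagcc
Isg15 (chr4:156200819-156201068, minus strand): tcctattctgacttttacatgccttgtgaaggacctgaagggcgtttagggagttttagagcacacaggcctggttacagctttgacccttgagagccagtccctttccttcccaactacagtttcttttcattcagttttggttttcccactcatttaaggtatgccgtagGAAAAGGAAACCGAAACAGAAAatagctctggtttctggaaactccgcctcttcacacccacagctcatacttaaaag
Ifit3 (chr19:34583279-34583528, plus strand): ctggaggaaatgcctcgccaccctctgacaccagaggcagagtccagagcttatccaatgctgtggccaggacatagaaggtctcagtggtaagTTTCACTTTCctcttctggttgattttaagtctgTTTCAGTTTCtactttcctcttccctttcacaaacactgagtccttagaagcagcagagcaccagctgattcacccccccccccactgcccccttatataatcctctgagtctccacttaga

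*Cxcl10* was described with the chemokines. *Isg15*, the ubiquitin-like protein gene, was at 334, 243, 450 and 171 CPM in macrophages and 23.1, 65.5 and 26 CPM in monocytes (2.97 ± 0.46, adjusted p = 3.27e-05). *Ifit3*, a translation inhibitor of the antiviral response, was at 180, 127, 162 and 102 against 10.4, 3.47 and 27.8 CPM (3.33 ± 0.52, adjusted p = 4.23e-05), and *Ifit2* at 401, 274, 377 and 249 against 9.44, 0 and 37.3 CPM (4.35 ± 0.71). *Iigp1*, an interferon gamma GTPase gene, was at 381, 387, 296 and 206 against 0, 0 and 6.81 CPM (6.93 ± 0.88, adjusted p = 2.23e-06). The members called lower were *Ifitm2*, *Ifitm3* and *Parp14*. Leaving out 1 library ended the call of *Parp14* in 5 of 7 fits (without macrophage library 22, 23 or 24 or monocyte library 23 or 24; highest adjusted p = 0.0927). *Ifitm3*, a membrane protein that restricts virus entry, was at 2021, 1314, 1789 and 1306 against 2207, 4126 and 2790 CPM (-0.92 ± 0.25, adjusted p = 0.00965), a call lost without the mouse 23 library (adjusted p = 0.0837), and *Ifitm2* was at 658, 493, 481 and 714 against 1278, 2275 and 1126 CPM (-1.41 ± 0.30, adjusted p = 0.0013); with spike-in scaling both turned over.

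Among antigen presentation genes, part of the MHC class II calls depended on the mouse 23 library, and the count of MHC class I calls did not. Of 13 genes of MHC class II, which displays peptides to CD4 T cells, 4 were called higher (30.8%, against 14.7% of all genes tested). Without that library 8 were called higher. None was called lower. *H2-Ab1* was at 16354, 8640, 14481 and 7594 CPM in macrophages and 4156, 4793 and 5237 CPM in monocytes (1.32 ± 0.37, adjusted p = 0.0108). *H2-Aa* was at 8146, 5566, 7035 and 5486 against 2300, 9090 and 3663 CPM, with the mouse 23 monocyte library above every macrophage library (0.39 ± 0.35, adjusted p = 0.46; without it 1.11, adjusted p = 0.0268). *H2-Eb1* (6675, 4576, 5300 and 4675 against 1611, 6220 and 2536 CPM) had adjusted p = 0.2 with it and 0.00602 without it, and *H2-DMb1*, which loads peptides, 0.287 and 0.0294. *Cd74*, the invariant chain, was at 29045, 15580, 22007 and 14537 against 9012, 26046 and 11327 CPM and was not called in either case (adjusted p = 0.478 and 0.089). Among 18 genes of MHC class I, 3 were called higher (16.7%, near the 14.7% of all genes; 3 without the library). The peptide transporter gene *Tap2* was at 715, 639, 529 and 487 against 183, 160 and 407 CPM (1.24 ± 0.31, adjusted p = 0.00477), while *B2m*, the light chain, was at 7789, 4903, 6966 and 5266 against 5286, 7194 and 5049 CPM (adjusted p = 0.827).

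Ligands that steer T cells were called higher in 9 and lower in 2 of 20 members (9 and 1 without the mouse 23 library, and 10 and none with spike-in scaling). *Cd274*, the gene of PD-L1, was at 394, 195, 204 and 291 CPM in macrophages and 47.2, 3.86 and 79.9 CPM in monocytes (2.63 ± 0.55, adjusted p = 0.00103). *Cd86*, a costimulatory ligand of CD28, was at 362, 368, 329 and 319 against 39.2, 76.7 and 29.3 CPM (2.83 ± 0.34, adjusted p = 8.35e-07). *Cd80*, the other ligand of CD28, was at 23.3, 2.81, 11.3 and 16.5 against 5.19, 0 and 4.14 CPM (2.09 ± 0.74, adjusted p = 0.0428). It was not called without macrophage library 22, 24 or 26 or monocyte library 23 (highest adjusted p = 0.112).

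Lysosomal genes, the enzymes and membrane proteins of intracellular digestion, rose in 27 of 51 members and fell in 2 (26 and 2 without the mouse 23 library, and 22 and none with spike-in scaling). Promoters of *Gla* and *Glb1* are shown because the CLEAR element GTCACGTG, the binding motif of lysosomal gene regulators, occurs in 2.11% of all those symbols and in 9 of the 39 members with one (23.1%), of which 4 were called higher. Of all 39 members with a promoter, 19 were called higher. Capitals mark the match.
Gla (chrX:134601126-134601255, minus strand): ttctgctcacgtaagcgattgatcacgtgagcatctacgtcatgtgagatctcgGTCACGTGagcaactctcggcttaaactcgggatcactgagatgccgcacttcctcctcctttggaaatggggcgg
Glb1 (chr9:114400828-114401075, plus strand): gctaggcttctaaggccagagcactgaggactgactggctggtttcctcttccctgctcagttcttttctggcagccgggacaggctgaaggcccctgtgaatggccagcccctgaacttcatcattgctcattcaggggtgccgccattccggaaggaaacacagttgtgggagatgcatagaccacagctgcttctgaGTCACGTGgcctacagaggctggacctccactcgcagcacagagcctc

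*Gla*, the alpha-galactosidase gene, was at 98.4, 117, 50.9 and 146 CPM in macrophages and 10.8, 0 and 2.37 CPM in monocytes (4.61 ± 0.65, adjusted p = 1.08e-05), and *Glb1*, the beta-galactosidase gene, at 116, 77.4, 96 and 99.9 against 40.6, 5.78 and 54.5 CPM (1.53 ± 0.42, adjusted p = 0.0102). *Cd63*, a late endosome tetraspanin gene, rose from 8.49, 9.25 and 5.33 to 884, 848, 994 and 997 CPM (6.92 ± 0.50, adjusted p = 2.16e-10), with no overlap between the groups. The protease *Ctsl* was at 625, 553, 502 and 1084 against 42.5, 5.78 and 24 CPM (4.85 ± 0.54). *Psap*, at 8466, 6048, 4957 and 6807 against 2785, 6273 and 6117 CPM, and the protease *Ctsa*, at 1883, 1399, 1397 and 1538 against 1063, 1838 and 1314 CPM, were not called (adjusted p = 0.281 and 0.681). *Gm2a*, a glycolipid activator gene, fell from 2064, 4816 and 2813 to 1332, 1242, 949 and 1344 CPM (-1.41 ± 0.24, adjusted p = 0.00013), a direction that turned over with spike-in scaling.

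The lipid-associated macrophage genes, which mark phagocytes that digest lipid, rose in 15 of 30 members and fell in 4 (14 and 4 without the mouse 23 library, and 15 and none with spike-in scaling). *Spp1*, the osteopontin gene, was at 843, 1150, 507 and 1927 CPM against 4.72, 0 and 1.48 CPM (9.13 ± 1.04, adjusted p = 4.23e-07). *Gpnmb*, a glycoprotein gene of lipid-laden macrophages, was at 945, 949, 236 and 842 against 0, 0 and 5.03 CPM (8.56 ± 1.08), with mouse 24 below the rest. *Trem2*, a lipid receptor gene, was at 363, 288, 368 and 398 against 10.8, 57.8 and 17.2 CPM (3.62 ± 0.39, adjusted p = 1.96e-07), and *Cd68*, a general macrophage gene, at 1410, 1224, 1210 and 1266 against 998, 1321 and 1336 CPM (adjusted p = 0.842). *Cd36*, a scavenger receptor for oxidised lipid, went the other way, from 562, 686 and 653 CPM in monocytes to 103, 52.5, 60.2 and 52.8 CPM in macrophages (-3.25 ± 0.44, adjusted p = 6.45e-06). Genes of apoptotic cell uptake were split, 7 higher (28%) and 5 lower (20%) of 25, against 14.7% and 8.39% of all genes tested. Without the mouse 23 library these were 7 and 4, and with spike-in scaling 7 and none. Their median log2 fold change was 0.07, or -0.22 with members at 0 set at their bound. *Mertk*, the receptor kinase for dying cells, was at 99.7, 63.8, 141 and 198 CPM, with 1 count in all monocyte libraries together, and was 1014-fold (95% interval 182 to 40090) higher on pooled counts. *Axl*, its relative, was at 1410, 1016, 748 and 1111 against 36.3, 88.3 and 45.9 CPM (4.23 ± 0.40, adjusted p = 2.41e-08). *Itgb3* fell from 54.7, 15.4 and 85.2 to 6.31, 2.21, 1.96 and 5.03 CPM (-3.75 ± 0.93, adjusted p = 0.00453). *Mrc1*, the mannose receptor gene, was at 49.8, 76, 66.1 and 318 against 1.42, 78.3 and 94.7 CPM (adjusted p = 0.399), with mouse 26 above the other macrophages.

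Complement genes rose in 11 of 21 members and fell in 3 (11 and 3 without the mouse 23 library, and 14 and none with spike-in scaling). The 3 chains of C1q, which begins the classical pathway, were all called higher. *C1qa* was at 2984, 2551, 2392 and 2570 CPM against 145, 189 and 25.5 CPM (4.46 ± 0.55, adjusted p = 1.37e-06), and *C1qb* and *C1qc* rose by 4.10 ± 0.51 and 4.63 ± 0.52 on the log2 scale. *Cfb*, of the alternative pathway, was at 387, 241, 175 and 182 against 0.944, 0 and 1.18 CPM (8.31 ± 0.73), and *C3ar1*, a receptor for a complement fragment, at 711, 694, 416 and 984 against 25, 32.4 and 3.85 CPM (5.12 ± 0.62). *Cfp*, which stabilises the alternative pathway enzyme, was at 639, 390, 558 and 484 against 676, 1197 and 228 CPM (adjusted p = 0.443). Of 7 Fc gamma receptor genes, whose products bind antibody-coated particles, 3 were called higher and 1 lower (3 and none without the mouse 23 library, and 3 and none with spike-in scaling). The shares in the reported fit were 42.9% and 14.3%, against 14.7% and 8.39% of all genes tested. *Fcgr1* was at 440, 369, 329 and 505 against 30.7, 49 and 48.8 CPM (3.26 ± 0.25, adjusted p = 5.62e-10), and the inhibitory *Fcgr2b* at 1552, 1185, 1015 and 1455 against 211, 362 and 233 CPM (2.28 ± 0.26). *Fcgr4*, a receptor shared by macrophages and patrolling monocytes, was at 444, 573, 332 and 554 against 498, 682 and 358 CPM (adjusted p = 0.844).

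Arginine and itaconate genes, which mark activation states of macrophages, rose in 4 of 14 members and fell in 2 (4 and 1 without the mouse 23 library, and 6 and none with spike-in scaling). The shares in the reported fit were 28.6% higher and 14.3% lower, against 14.7% and 8.39% of all genes tested. *Arg1*, the arginase gene (chr10:24915221-24927484, minus strand), was at 293, 987, 360 and 1354 CPM in macrophages and 0, 1.16 and 0.296 CPM in monocytes, which held 4 counts in all, and was 1876-fold (95% interval 732 to 6886) higher on pooled counts. *Nos2*, the gene of inducible nitric oxide synthase, which uses the same substrate, was at 32.2, 39.9, 13.2 and 135 CPM, with mouse 26 the highest. Its mean, which mouse 26 raised, was at least 47.7-fold higher. *Irg1*, which makes itaconate, was at 240, 182, 136 and 168 against 0, 0 and 3.85 CPM (6.89 ± 0.66, adjusted p = 3.54e-08). Both *Arg1* and *Nos2* were measured in every macrophage library, and how they divide among cells cannot be read from bulk samples.

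Glycolysis and hypoxia genes rose in 13 of 34 and fell in none (15 and 2 without the mouse 23 library). *Hif1a*, the hypoxia factor gene, was at 387, 530, 489 and 255 CPM against 80.2, 115 and 72.5 CPM (2.22 ± 0.42, adjusted p = 0.000406), and *Bnip3*, a target of it, at 116, 250, 75.9 and 290 against 22.6, 0 and 13.6 CPM (3.94 ± 0.87). *Ldha* (1828, 2092, 1663 and 2250 against 1334, 1719 and 961 CPM) and *Eno1* (1538, 1599, 1346 and 1702 against 1444, 1589 and 1276 CPM), abundant glycolytic enzymes, were not called (adjusted p = 0.0979 and 0.739). *Ldha* was called higher without the mouse 23 library (adjusted p = 0.0425). Of 76 oxidative phosphorylation genes, 2 were called higher (2.63%) and 6 lower (7.89%), the latter near the 8.39% of all genes (1 and 3 without the library, and 3 and none with spike-in scaling). *Uqcrh* fell from 383, 601 and 219 to 129, 165, 132 and 152 CPM (-1.47 ± 0.28) and *Ndufa4* from 386, 369 and 205 to 95.2, 135, 137 and 114 CPM (-1.41 ± 0.26), directions that turned over with spike-in scaling, while *Atp5a1* was at 715, 714, 627 and 761 against 748, 601 and 751 CPM (adjusted p = 0.978). Among 45 cholesterol and lipid genes 5 were called higher (11.1%) and 4 lower (8.89%), shares near those of all genes tested (14.7% and 8.39%), with 3 and 2 without the library and 5 and none with spike-in scaling. *Ch25h*, which makes 25-hydroxycholesterol, was at 47.9, 60.8, 35.3 and 52.8 CPM and absent from the monocytes, and *Npc2*, a lysosomal cholesterol carrier gene, at 1182, 1055, 1037 and 1011 against 397, 693 and 440 CPM (1.07 ± 0.21).

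Eicosanoid enzymes make prostaglandins, thromboxane and leukotrienes from arachidonic acid. Of 21 tested, 10 were called higher and 6 lower (8 and 6 without the mouse 23 library, and 11 and none with spike-in scaling). *Ptgs2* was described above. *Hpgds*, of prostaglandin D2 synthesis, was at 146, 118, 151 and 107 against 0, 23.1 and 0 CPM (4.08 ± 0.80, adjusted p = 0.000584), and *Tbxas1*, of thromboxane synthesis, at 147, 205, 169 and 236 against 10.4, 44 and 30.5 CPM (2.74 ± 0.35). *Hpgd*, which breaks prostaglandins down, fell from 489, 835 and 732 to 44.1, 25.9, 115 and 13.5 CPM (-3.80 ± 0.67, adjusted p = 0.000166), as did *Alox15*, a lipoxygenase gene, from 392, 388 and 52.7 to 2.52, 1.4, 17.6 and 1.37 CPM (-5.67 ± 1.06, adjusted p = 0.000342), and *Alox5ap*, of leukotriene synthesis, from 616, 761 and 525 to 197, 188, 163 and 220 CPM (-1.72 ± 0.21; turned over with spike-in scaling). Of 22 iron and heme genes 3 were called higher (13.6%) and 2 lower (9.09%), again near the shares of all genes, with 2 and 3 without the library and 3 and none with spike-in scaling. *Fth1*, a ferritin chain gene, was at 11285, 6134, 8583 and 7380 against 4383, 294 and 2116 CPM (1.88 ± 0.48, adjusted p = 0.00558). *Hfe* fell from 579, 870 and 805 to 195, 199, 134 and 241 CPM (-1.97 ± 0.25, adjusted p = 1.9e-06). Purinergic and adenosine genes, which sense extracellular nucleotides, rose in 9 of 19 and fell in 2 (10 and 1 without the library, and 10 and none with spike-in scaling), with *P2ry14* at 74.4, 70.8, 86.2 and 81.2 against 0, 0 and 1.78 CPM (6.72 ± 0.59) and *P2rx4* at 302, 212, 197 and 230 against 34.9, 6.94 and 66.9 CPM (2.69 ± 0.43).

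Matrix and protease genes rose in 20 of 43 members and fell in 4 (14 and 2 without the mouse 23 library, and 21 and none with spike-in scaling). *Mmp13* and *Sparc* were named above, and *Mmp25*, a membrane-bound metalloproteinase gene, was at 25.9, 33.1, 23 and 20.4 CPM and absent from every Ly6Clow library. *Fn1*, the fibronectin gene, was at 144, 252, 26.4 and 661 against 497, 1398 and 366 CPM and was not called (adjusted p = 0.284). Integrins and adhesion genes went both ways, 8 higher (21.1%) and 10 lower (26.3%) of 38, against 14.7% and 8.39% of all genes tested. Without the library these were 9 and 11, and with spike-in scaling 10 and 1. *Vcam1*, an adhesion ligand gene, was at 91.5, 180, 115 and 357 CPM and absent from the monocytes. *Itgal*, the LFA-1 chain with which patrolling monocytes hold on to the vessel wall, fell from 788, 1619 and 2058 to 310, 256, 208 and 309 CPM (-2.46 ± 0.32, adjusted p = 3.18e-06). *Icam2* fell from 194, 109 and 64.5 to 13.2, 26.3, 23.5 and 22.6 CPM (-2.51 ± 0.47). *Cd9* was at 793, 581, 837 and 685 against 1067, 727 and 522 CPM (adjusted p = 0.881).

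Transcription factors of monocytes and macrophages were split, 11 higher (22.9%) and 10 lower (20.8%) of 48, against 14.7% and 8.39% of all genes tested. Without the mouse 23 library these were 10 and 8, and with spike-in scaling 13 and none. *Maf*, a factor of macrophage identity, was at 40.4, 56.1, 73.5 and 64.3 CPM in macrophages and 13.7, 1.16 and 10.1 CPM in monocytes (2.82 ± 0.54, adjusted p = 0.000452). *Cebpb*, a factor of Ly6Clow monocyte survival, was at 6.94, 5.01, 4.41 and 8 against 64.6, 86.8 and 14.8 CPM (-3.17 ± 0.62, adjusted p = 0.000495), and *Klf2*, a factor of quiescence, at 14.5, 9.02, 35.8 and 13.3 against 173, 191 and 71 CPM (-3.01 ± 0.76, adjusted p = 0.00548). *Spi1*, the gene of the myeloid factor PU.1, was at 737, 651, 674 and 241 against 854, 104 and 834 CPM (adjusted p = 0.954). Immediate-early and heat-shock genes, which respond within minutes to handling and to inflammatory signals, rose in 18 of 38 and fell in 2 (15 and 2 without the library, and 17 and none with spike-in scaling). *Fosb*, an AP-1 gene, was at 32.2, 28.5, 47.5 and 76.4 against 1.89, 0 and 0 CPM (6.33 ± 0.90) and *Egr1* at 49.2, 127, 334 and 51.9 against 17.9, 6.94 and 2.66 CPM (3.97 ± 0.95), while the chaperone *Hspa8* was at 1960, 1068, 1181 and 971 against 1110, 1275 and 945 CPM (adjusted p = 0.586). Brain cells alone were released with enzymes, and the part of that step in these values was not tested.

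Survival genes were split, 6 higher (22.2%) and 4 lower (14.8%) of 27, against 14.7% and 8.39% of all genes tested. Without the mouse 23 library these were 5 and 3, and with spike-in scaling 5 and none. *Cdkn1a*, the cell cycle inhibitor p21, was at 632, 412, 710 and 760 CPM in macrophages and 42.5, 59.4 and 48.2 CPM in monocytes (3.65 ± 0.34, adjusted p = 2.3e-08). *Bcl2*, on which patrolling monocytes depend, was at 36.6, 36.3, 59.3 and 11 against 92.5, 64.8 and 151 CPM (-1.53 ± 0.51, adjusted p = 0.0322). This call was lost without macrophage library 22, 23 or 26 or monocyte library 22 or 24 (highest adjusted p = 0.14). Cell cycle genes rose in 29 of 38 and fell in none (32 without the library), with a median log2 fold change of 3.69 and summed levels of 1761 to 2724 CPM against 685 to 731 CPM. *Mki67*, the proliferation marker Ki-67, was at 29.6, 24.3, 12.7 and 59.5 against 2.36, 1.16 and 3.26 CPM (3.77 ± 0.93, adjusted p = 0.00433), and *Top2a*, a mitotic topoisomerase gene, at 71.9, 87.8, 50.9 and 139 against 0.472, 0 and 6.51 CPM (5.08 ± 1.03). *Birc5*, of the mitotic spindle, was at 48.6, 39.9, 26 and 75 against 2.36, 0 and 0.296 CPM (5.83 ± 0.90). In all of these genes mouse 26 was the highest macrophage library.

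**Figure D4:**
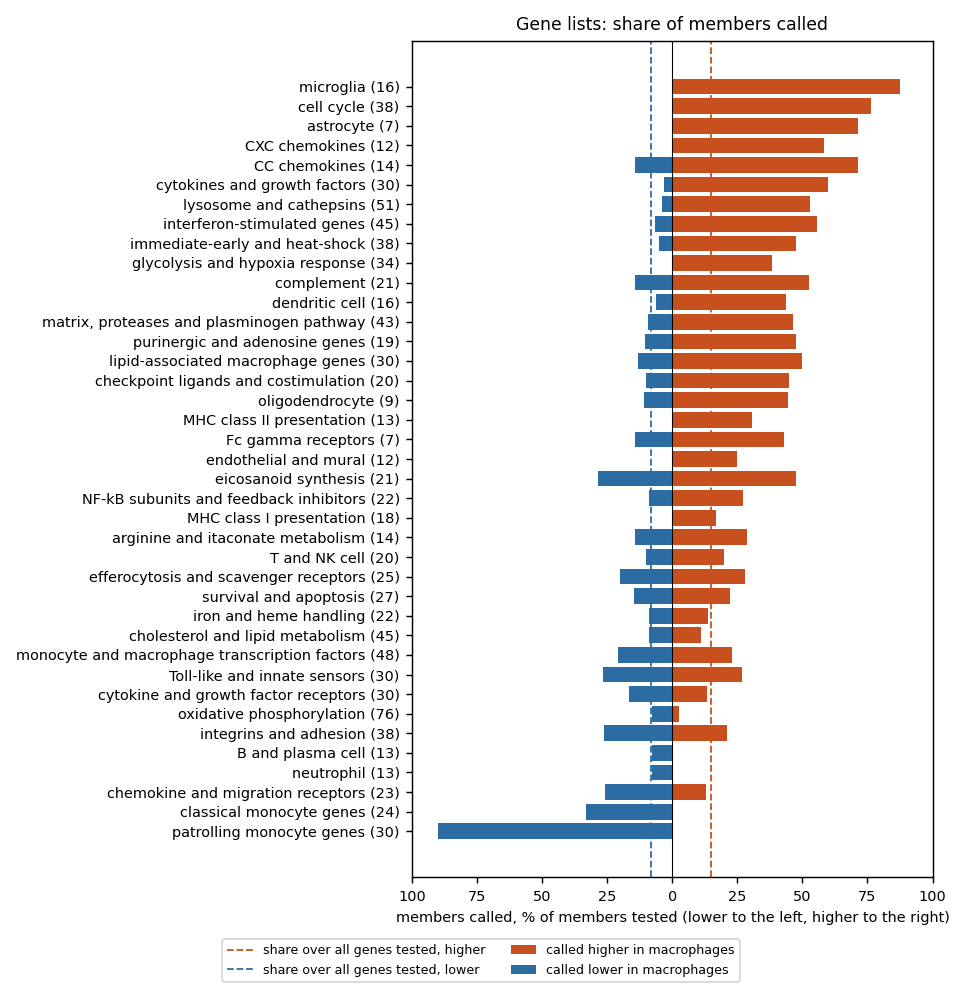
Share of tested members of each gene list that was called higher (right) or lower (left) in GFPneg CCR2high macrophages against Ly6Clow blood monocytes, with the number of members tested in brackets. The dashed lines mark the shares over all genes tested, 14.7% higher and 8.39% lower; the microglia list has the longest bar to the right (14 of 16) and the patrolling monocyte list the longest to the left (27 of 30).

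Values in populations next to these are given beside them, from the same fit. *Tmem119* was at 673 ± 196 CPM in GFPneg CCR2high macrophages (SD, n = 4), 1219 ± 668 CPM in CCR2low macrophages (SD, n = 4) and 5.77 ± 2.08 CPM in Ly6Chigh monocytes (SD, n = 3). *Arg1* was at 749 ± 510, 597 ± 480 and 0 ± 0 CPM in the same order, and *Il1b* at 2109 ± 1066, 1152 ± 746 and 88.1 ± 52.3 CPM. Between CCR2high and CCR2low GFPneg macrophages no gene was called by edgeR, and 276 of 11566 had an unadjusted p under 0.05, the smallest adjusted p being 0.64. DESeq2 called 8 and limma-voom 1. Ly6Chigh and Ly6Clow monocytes differed in 649 genes (5.61%), 227 higher and 422 lower in Ly6Chigh. The Ly6Chigh level of *Ear2* and *Spn* lay between those of Ly6Clow monocytes and macrophages. *Ear2* was at 262 ± 164 CPM in Ly6Chigh monocytes (SD, n = 3) against 1153 ± 147 CPM in Ly6Clow monocytes (SD, n = 3) and 17.5 ± 2.5 CPM in macrophages (SD, n = 4), and *Spn* at 50.9 ± 18.4, 345 ± 119 and 12.3 ± 3.09 CPM. Both comparisons share samples with the main one.

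How far the calls rest on each choice is shown in the plot of genes called by setting. Leaving out 1 replicate at a time left between 2009 and 3576 genes called. Leaving out the Ly6Clow library of mouse 24 gave the most, and that of mouse 23 the fewest. Fitting the 2 populations alone gave 787 calls, and adding the mouse as a block to that fit gave 117 (75.21% higher), with mouse 26, which has only macrophages, adding nothing to the difference.

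**Figure D5:**
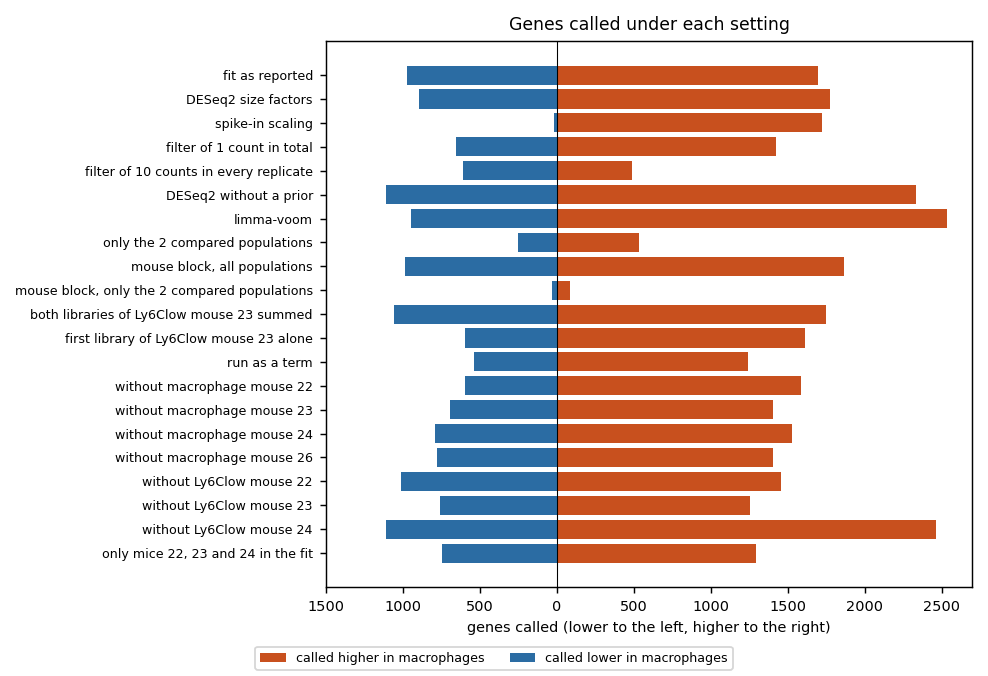
Genes called higher (right) and lower (left) in GFPneg CCR2high macrophages against Ly6Clow blood monocytes under each setting. The reported fit has 1699 and 970. Spike-in scaling has the fewest lower calls and the mouse block on the 2 compared populations the fewest higher calls. The setting labelled run as a term is a term for second libraries.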

How the data were processed

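Polyadenylated RNA of sorted cells was amplified with the SMARTer ultra-low kit and sequenced as 75-bp paired reads. The deposited values are raw counts per gene symbol, made by the authors with STAR, Picard 1.8.4 and HTSeq against mm10; whether strand was used in counting is not given in the sources used here, so antisense and overlapping genes cannot be separated. The table of the second Ly6Clow library of mouse 23 was joined to the others by gene symbol. The count table also holds 92 spike-in RNAs, which were kept out of library sizes.

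The 28 replicates of 8 populations were fitted in 1 model with edgeR 4.0.16 (R 4.3.3; filterByExpr, TMM, robust quasi-likelihood F test), and changes beyond 2-fold were tested with glmTreat. Alternatives used DESeq2 1.42.0 and limma 3.58.1 (voom). Replicates came from separate mice. Mouse numbers mark the same animal in both populations, and the correlation of same-mouse deviations was -0.0217, -0.0226 and -0.0971. Exact permutation of 4 against 3 replicates cannot go below p = 0.0571.

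The members and gene lists were chosen with earlier results of these data known. Genes were named by rule: every marker the study uses, the 12 largest fitted changes in each direction (called, mean of at least 10 CPM, no overlap), up to 4 such members per list and direction, up to 2 uncalled members with the highest mean, and members that define a list. The text describes 168 tested genes, a selection made from those after their values were seen, and some items are not reported here. A fold is given as a bound, against a floor of 3 counts per library averaged over the group, only where every library of a population had no count; with few counts, the ratio of pooled counts with its exact 95% interval is given, which covers counting error only. Gene positions are from GENCODE release 21 (GRCm38) and promoters from RefSeq (GRCm38.p6).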

Additional observations from a re-analysis of the deposited data

Results flagged for a closer look

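Among the 207 levels examined over the 4 macrophage libraries, 18 had 1 library whose gap to the nearest of the others was above Dixon's 95% critical value for 4 samples, and chance alone passes it in about 1 in 20 groups. Mouse 26 was the high library in 6. It had 1177 CPM of the cyclooxygenase gene *Ptgs2* (119 to 201 in the others), 611 CPM of *Cxcl1* (16.2 to 100), 49.9 CPM of *Cxcl3* (0.49 to 3.21), 220 CPM of *Pf4* (32.8 to 57.6), 46.9 CPM of *Il10* (2.94 to 7.57) and 318 CPM of *Mrc1* (49.8 to 76). Mouse 24 was high in 6, with 376 CPM of *Ccl22* (69.1 to 104), 17.6 CPM of *Alox15* (1.37 to 2.52), 14.2 CPM of *Camp* (0 to 0.915), 1.47 CPM of *Dtx1* (0 in the others), 7494 CPM of the microglia list (4093 to 4498) and 2241 CPM of the dendritic cell list (1080 to 1200). It was low in *Ear2*, at 13.7 CPM (18.5 to 18.9), and in *Gpnmb*, at 236 CPM (842 to 949). Mouse 22 was high in *Cxcl16*, at 1650 CPM (1155 to 1220), in *Cd36*, at 103 CPM (52.5 to 60.2), and in the lysosome list, at 71310 CPM (54180 to 57020). Mouse 23 was low in the survival list, at 2318 CPM (2779 to 2815). The part of other cells in these libraries was not tested.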

How the results depend on the processing

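Of the 131 named genes called, 118 were called in every fit that left out 1 replicate. Of the same 131, 80 lost the call with the replicate block in the fit of only the 2 compared populations, and 22 in that fit without the block. With spike-in scaling 29 lost it, besides those that turned over. In the fits of only the 2 compared populations, 164 of the 168 named genes had a value. Over the fits that left out 1 replicate, the count of genes called (2669) ranged from 2009 to 3576, and that of genes called higher (1699) from 1253 to 2465. Genes called lower (970) ranged from 598, without the mouse 22 macrophage library, to 1111. Genes past 2-fold (1250) ranged from 934, without the mouse 23 monocyte library, to 2042, without that of mouse 24. Over the same fits the count for Ly6Chigh against Ly6Clow monocytes (649) ranged from 513 to 2444, the latter without the mouse 24 Ly6Clow library. That for CCR2high against CCR2low macrophages ranged from 0 to 1, the latter without the mouse 23 monocyte library.

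With spike-in scaling 1738 genes were called, 16 of them lower, and 36 between the monocyte populations. A filter of 10 counts in every replicate, which tests fewer genes and drops genes absent from 1 population, gave 1100 called, 491 higher, 609 lower and 208 past 2-fold. A fit of only the 2 compared populations, with fewer samples, gave 787, 537 higher, 250 lower and 451 past 2-fold. With the mouse as a replicate block the fit of all populations gave 2852 called, 3 between the macrophage populations and 922 between the monocyte populations, and the block in the fit of only the 2 compared populations gave 117, 88 higher, 29 lower and 84 past 2-fold. A term for second libraries, which in the compared populations marked only the Ly6Clow library of mouse 23, gave 1775 called. It gave 535 lower and 304 between the monocyte populations. The first library of mouse 23 gave 592 lower and 324 between the monocyte populations. Between the monocyte populations, a filter of 1 count gave 397, DESeq2 1375 and limma-voom 1236, and between the macrophage populations DESeq2 gave 8 and limma-voom 1. An alternative chosen after seeing the data, only mice 22, 23 and 24, gave 2043. Beyond those stated the cause was not tested.

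Under spike-in scaling the log2 fold change turned positive for *Ptprc* (0.26), *Cd3e* (0.53), *Trbc2* (0.16), *Ccl6* (0.19), *Ccl9* (0.32), *S1pr1* (0.37), *Ifngr1* (0.38), *Ifitm2* (0.74), *Ifitm3* (0.9997), *Parp14* (0.41), *Gm2a* (0.60), *Cfp* (2.26), *Uqcrh* (0.84), *Ndufa4* (0.67) and *Alox5ap* (0.23).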
